A study of Homo sapiens with 8 samples.

Results

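Class I antigen presentation genes were followed here after siRNA against 17β-HSD1 in T47D, a long-established breast cancer line of luminal type that expresses the estrogen receptor. The list held 9 genes, chosen by name with earlier results of these data known. Comparisons of these genes with all probe sets are therefore descriptions. The HLA class I heavy chains on the list were HLA-B, HLA-C, HLA-E and HLA-F. The others were the light chain B2M, the peptide transporter subunit TAP1, the proteasome subunit PSMB9, the trimming peptidase ERAP1 and the transactivator NLRC5. Of the 33297 probe sets on the array, 15 named 8 of these genes, out of 20172 genes named in all. HLA-E was named by no probe set in the annotation used and was not analysed here. Every probe set naming a gene on the list was kept and tested, with no filter on low signal.

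The 8 arrays (Affymetrix Human Gene 1.0 ST, which read transcripts through sets of short probes) came in 4 groups of 2. Cells had received 17β-HSD1 siRNA and E2, 17β-HSD1 siRNA and vehicle, control siRNA and E2, or control siRNA and vehicle. All cells were kept in charcoal-treated medium without steroids for 2 days, then transfected with 200 nM of a mixture of 3 siRNAs against 17β-HSD1 or of a scrambled control siRNA, and after 48 h moved for 2 days to medium with either 1 nM estradiol (E2) or ethanol, the vehicle. 17β-HSD1, encoded by HSD17B1, reduces estrone to estradiol, and the study asked what its loss changes with and without added E2. Replicates 1 and 2 came from 2 independent cultures of 1 cell line, and no second siRNA pool was used as a separate group.

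MHC class I molecules show peptides from inside the cell to CD8 T cells and natural killer cells. The proteasome cuts proteins into peptides, TAP carries them into the endoplasmic reticulum, ERAP1 trims them, and they are loaded onto a heavy chain paired with B2M. HLA-B and HLA-C are classical heavy chains that present varied peptides to T cells, whereas HLA-F is a non-classical heavy chain with few alleles. Interferons raise transcription of most of these genes through IRF and STAT factors that bind an interferon-stimulated response element. NLRC5, itself interferon-inducible, acts on the SXY module of class I promoters. The module holds an X box region, part of which resembles a cyclic AMP response element, and a Y box that reads ATTGG.

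The promoter stretches of the heavy chains, B2M and TAP1 are shown because they are known to carry some or all of these elements. They run from 180 to 30 bases before the annotated start site, 5′ to 3′ on the strand of the gene, and come from RefSeq on GRCh38.p14. The stretches lie at chr6:31357209-31357359 (minus strand) for HLA-B, chr6:31272122-31272272 (minus) for HLA-C, chr6:29723254-29723404 (plus) for HLA-F, chr15:44711337-44711487 (plus) for B2M and chr6:32853734-32853884 (minus) for TAP1. Capitals mark the letters AANNGAAA, TGACG and CCAAT on either strand, so that their reverse complements, such as CGTCA and ATTGG, are also in capitals. Adjacent or overlapping matches run together.
HLA-B: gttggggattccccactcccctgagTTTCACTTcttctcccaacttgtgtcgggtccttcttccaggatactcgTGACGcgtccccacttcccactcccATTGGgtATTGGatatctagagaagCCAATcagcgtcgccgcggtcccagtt
HLA-C: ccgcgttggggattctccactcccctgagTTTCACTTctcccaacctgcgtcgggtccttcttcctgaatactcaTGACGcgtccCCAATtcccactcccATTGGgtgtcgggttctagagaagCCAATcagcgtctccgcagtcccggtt
HLA-F: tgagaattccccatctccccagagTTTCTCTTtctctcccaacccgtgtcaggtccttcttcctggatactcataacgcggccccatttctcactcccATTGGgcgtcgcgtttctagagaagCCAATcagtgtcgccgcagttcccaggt
B2M: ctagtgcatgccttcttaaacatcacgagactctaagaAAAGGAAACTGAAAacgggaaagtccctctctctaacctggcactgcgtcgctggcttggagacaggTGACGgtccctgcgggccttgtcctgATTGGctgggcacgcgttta
TAP1: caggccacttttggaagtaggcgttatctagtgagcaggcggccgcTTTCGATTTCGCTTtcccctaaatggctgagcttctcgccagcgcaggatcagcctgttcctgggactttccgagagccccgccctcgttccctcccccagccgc

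RefSeq windows of 300 bases (250 before to 50 after a start site) were given for 7 of the 9 genes, 9 windows in all. The full response element, GAAA repeated on 1 strand with 2 bases between, was found on either strand in windows of 4 genes (HLA-F, TAP1, B2M and ERAP1), against 3.57% of all 35116 windows. In ERAP1 the match lay just after the start site. The shorter core AANNGAAA, which every full match also contains, was found in windows of 6 genes (also HLA-B and HLA-C), against 22.8% of all windows. TGACG was found in windows of 4 genes (HLA-B, HLA-C, B2M and PSMB9), against 24.6%, and CCAAT in windows of all 7, against 34.6%. TGACG followed on the same strand by ATTGG, with 10 to 30 bases between them, was found in HLA-B, HLA-C and B2M, against 0.775% of all windows. The spacing was 20 bases in HLA-B, 20 in HLA-C and 21 in B2M. These letters were chosen after the windows had been seen, the matches are descriptions of the reference sequence, and T47D alleles of the HLA genes may differ from it. TAP1 and PSMB9 are neighbours, with annotated start sites 488 bases apart on opposite strands.

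The 15 probe sets gave 7 distinct readouts. HLA-B had no probe set of its own: 3 probe sets named both HLA-C and HLA-B, and 3 named both HLA-F and HLA-B, so neither kind reads 1 gene alone. They are called HLA-C/HLA-B and HLA-F/HLA-B here, each represented by the probe set with the highest mean signal. TAP1 and PSMB9 had 3 probe sets each whose values were identical on every array, so each counts once. B2M, ERAP1 and NLRC5 had 1 probe set each. Signals are log2 units, in which a difference of 1 is a doubling, and a signal is compared between arrays, not with the level of another probe set.

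Heavy chain signal was higher after 17β-HSD1 siRNA in both media. In E2, HLA-C/HLA-B was at 13.44 and 13.36 in the 17β-HSD1 siRNA arrays, against 11.94 and 12.58 in the control siRNA arrays. In vehicle it was at 13.39 and 13.59 with 17β-HSD1 siRNA, against 12.08 and 12.44 with control siRNA. All 4 knockdown arrays lay within 0.23 of each other and above every control array, and replicate 1 was the lower control array in both media. HLA-F/HLA-B was at 11.44 and 11.32 with 17β-HSD1 siRNA in E2, against 9.77 and 10.32 with control siRNA in E2. In vehicle it was at 11.17 and 11.69 with 17β-HSD1 siRNA, against 9.87 and 10.20 with control siRNA. The lowest knockdown array was 0.85 above the highest control array, the widest such gap of the 7 readouts.

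B2M, the light chain that every class I heavy chain needs to reach the cell surface, showed the same split by siRNA. Its signal in E2 was 12.46 and 12.57 with 17β-HSD1 siRNA, against 11.25 and 11.84 with control siRNA. The vehicle arrays were at 12.30 and 12.75 with 17β-HSD1 siRNA, against 11.67 and 11.56 with control siRNA. Every knockdown array was above every control array, and the gap between the nearest arrays of the 2 siRNAs was 0.46.

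TAP1, which with TAP2 forms the peptide pump of the endoplasmic reticulum, was at 11.27 and 11.19 in E2 with 17β-HSD1 siRNA, against 9.82 and 10.49 with control siRNA. In vehicle it was at 10.92 and 11.29 with 17β-HSD1 siRNA, against 9.92 and 10.10 with control siRNA. The control array nearest to the knockdown arrays was E2 replicate 2, 0.43 below the lowest of them. PSMB9, the immunoproteasome subunit that replaces PSMB6, was at 10.47 and 10.19 in E2 with 17β-HSD1 siRNA, against 8.64 and 9.38 with control siRNA. In vehicle PSMB9 was at 9.75 and 10.46 with 17β-HSD1 siRNA, against 8.88 and 9.06 with control siRNA. The siRNA groups of PSMB9 did not overlap, and its 2 knockdown arrays in vehicle were 0.71 apart, the widest spread between knockdown replicates among the 7 readouts.

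ERAP1, which shortens peptides to the length that fits the class I groove, was at 9.07 and 9.02 in E2 with 17β-HSD1 siRNA, against 7.81 and 8.45 with control siRNA. In vehicle it was at 8.92 and 9.41 with 17β-HSD1 siRNA, against 7.99 and 8.42 with control siRNA. The siRNA groups were 0.47 apart at their nearest arrays, while the control replicates were 0.64 apart in E2. NLRC5 showed the smallest difference. It was at 8.11 and 8.10 in E2 with 17β-HSD1 siRNA, against 7.65 and 7.81 with control siRNA, and in vehicle at 8.04 and 8.05 with 17β-HSD1 siRNA, against 7.59 and 7.59 with control siRNA. Its groups did not overlap either, with a gap of 0.23.

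In all 7 readouts every 17β-HSD1 siRNA array was therefore above every control siRNA array, an arrangement that 2.24% of the 21214 tested probe sets had in this direction and 2.16% in the other. Within E2 alone 18.1% of tested probe sets had both knockdown arrays above both control arrays, and within vehicle alone 11.4%.

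**Figure D1:**
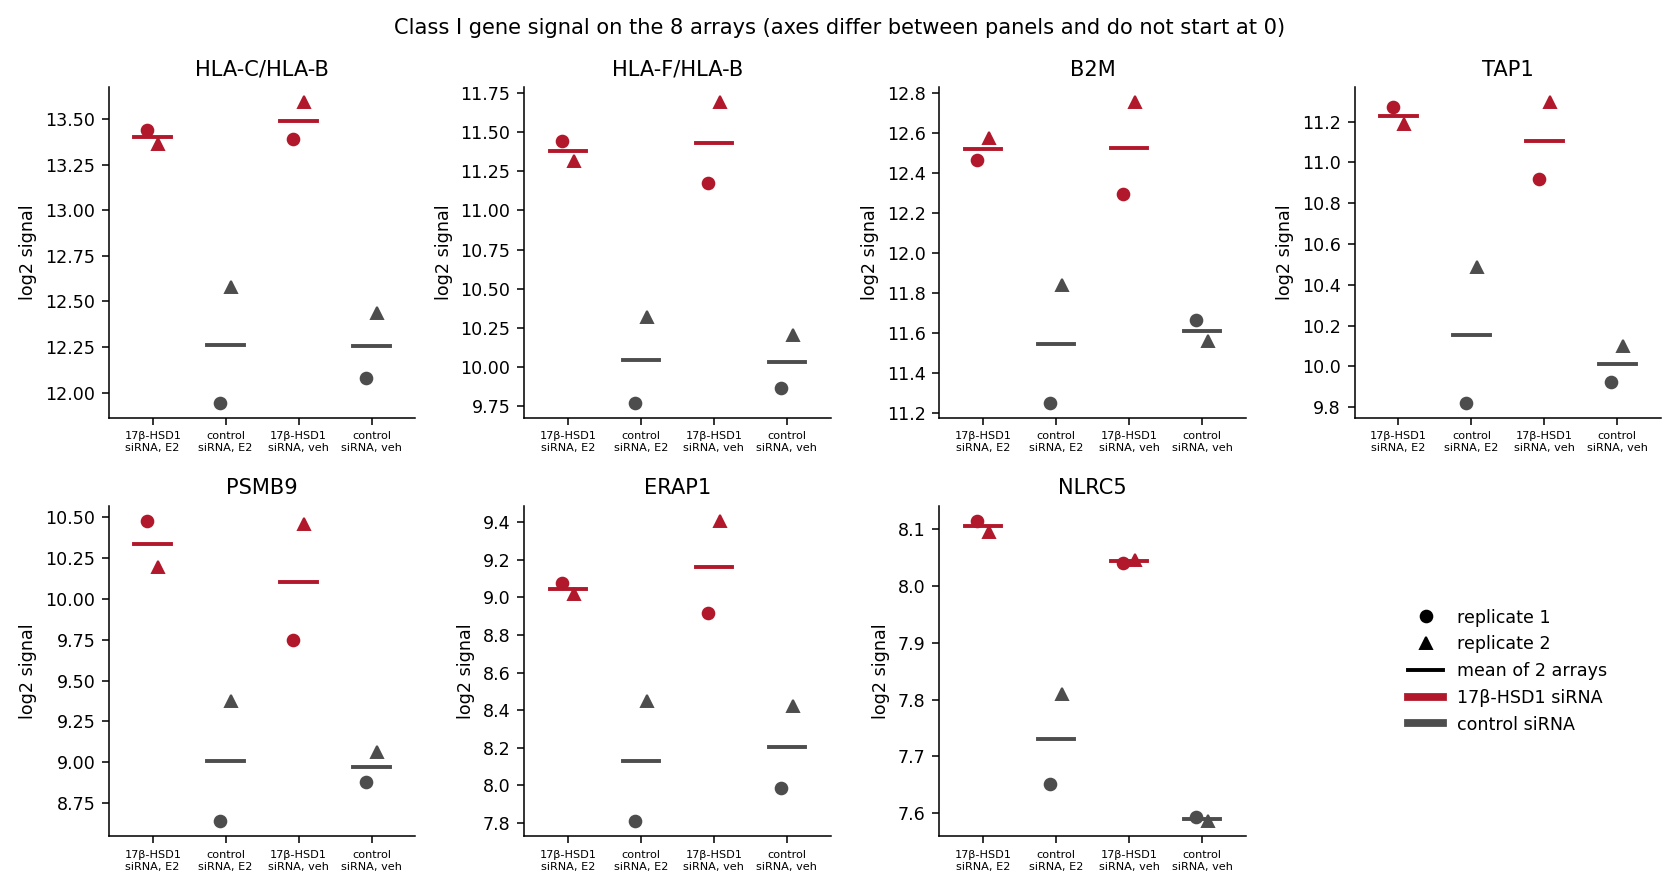
Log2 signal (vertical axis, a different range in each panel) of the 7 class I readouts on the 8 arrays, grouped by siRNA and medium (horizontal axis; veh is vehicle). Circles are replicate 1, triangles replicate 2 and bars the mean of 2 arrays; in each panel the 4 red points of 17β-HSD1 siRNA lie above the 4 grey points of control siRNA.

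As the mean of both media, 17β-HSD1 siRNA raised 6 of the 7 readouts, which name 7 of the 8 measured genes, and lowered none. Across all tested probe sets 51 rose (0.24%) and 97 changed in either direction (0.457%), at an adjusted p below 0.05 from limma with Benjamini-Hochberg adjustment over 21214 probe sets. HLA-F/HLA-B rose 2.58-fold (log2 change 1.37 ± 0.16 SE, 4 arrays against 4, limma adjusted p = 0.0104), the third smallest p of all probe sets tested. HLA-C/HLA-B rose 2.27-fold (1.18 ± 0.15, limma adjusted p = 0.0104). PSMB9 rose 2.34-fold (1.23 ± 0.19, limma adjusted p = 0.0197) and TAP1 2.12-fold (1.09 ± 0.15, limma adjusted p = 0.0138). B2M rose 1.92-fold (0.94 ± 0.15, limma adjusted p = 0.0232) and ERAP1 1.92-fold (0.94 ± 0.17, limma adjusted p = 0.0384). NLRC5 was 1.33-fold higher (0.41 ± 0.10) without passing the threshold (limma adjusted p = 0.118). All 7 had an unadjusted p below 0.05, against 9.44% of tested probe sets. The median change over the 7 readouts was 1.09, against 0.01 over all tested probe sets. Because the genes were chosen with earlier results of these data known, these shares and medians are descriptions that the choice partly fixes.

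The calls depended on single arrays and on which probe sets entered the fit. Without replicate 1 of 17β-HSD1 siRNA with E2, or without its replicate 2, none of the 7 genes was called, and neither was any other probe set, while the changes of the 6 called readouts stayed between 0.92 and 1.40. With all 33297 probe sets fitted and adjusted together, none was called either (limma adjusted p = 0.0734 for both HLA readouts and 0.2 for ERAP1). B2M, PSMB9 and ERAP1 dropped out without replicate 1 of control siRNA with vehicle. Without replicate 2 of 17β-HSD1 siRNA with vehicle B2M and ERAP1 dropped out. ERAP1 alone dropped out without replicate 1 of control siRNA with E2 or replicate 1 of 17β-HSD1 siRNA with vehicle.

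Taken in each medium separately, with 2 arrays against 2, the changes were of similar size but none passed the threshold. In E2 the log2 changes were 1.14 ± 0.21 for HLA-C/HLA-B, 1.33 ± 0.22 for HLA-F/HLA-B, 0.97 ± 0.21 for B2M and 1.07 ± 0.21 for TAP1. In E2 they were 1.32 ± 0.26 for PSMB9, 0.92 ± 0.24 for ERAP1 and 0.37 ± 0.14 for NLRC5. Their limma adjusted p in E2 lay between 0.225 for both HLA readouts and 0.93 for NLRC5. In vehicle the log2 changes were 1.23 ± 0.21 for HLA-C/HLA-B, 1.40 ± 0.22 for HLA-F/HLA-B, 0.91 ± 0.21 for B2M and 1.10 ± 0.21 for TAP1. In vehicle they were 1.13 ± 0.26 for PSMB9, 0.96 ± 0.24 for ERAP1 and 0.45 ± 0.14 for NLRC5. Their limma adjusted p in vehicle lay between 0.181 for both HLA readouts and 0.621 for NLRC5.

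In each medium limma called 0 of all 21214 probe sets (0%), so no gene could be told apart from the rest by this rule. All 7 class I readouts had an unadjusted p below 0.05 in both media, against 977 probe sets in E2 (4.61%) and 1157 in vehicle (5.45%). With the culture experiment (replicate block) in the limma fit, HLA-C/HLA-B, HLA-F/HLA-B, TAP1 and PSMB9 rose in E2. Their adjusted p with the block in E2 were 0.0363, 0.0156, 0.0476 and 0.0476, with 45 of all probe sets called (0.212%). In vehicle with the block HLA-C/HLA-B, HLA-F/HLA-B and TAP1 rose, with adjusted p of 0.024, 0.0119 and 0.0454 and 37 of all probe sets called (0.174%). Without the block, the calls and the changes in E2 moved with 1 control siRNA array in E2. Without its replicate 2 they were 1.455 for HLA-C/HLA-B, 1.61 for HLA-F/HLA-B, 1.27 for B2M, 1.41 for TAP1 and 1.69 for PSMB9. Without its replicate 1 these changes were 0.82, 1.06, 0.68, 0.74 and 0.96, in the same order. For ERAP1 they were 1.24 and 0.60, and for NLRC5 0.45 and 0.29. Calls in vehicle moved as well, although the vehicle changes themselves did not use these arrays.

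**Figure D2:**
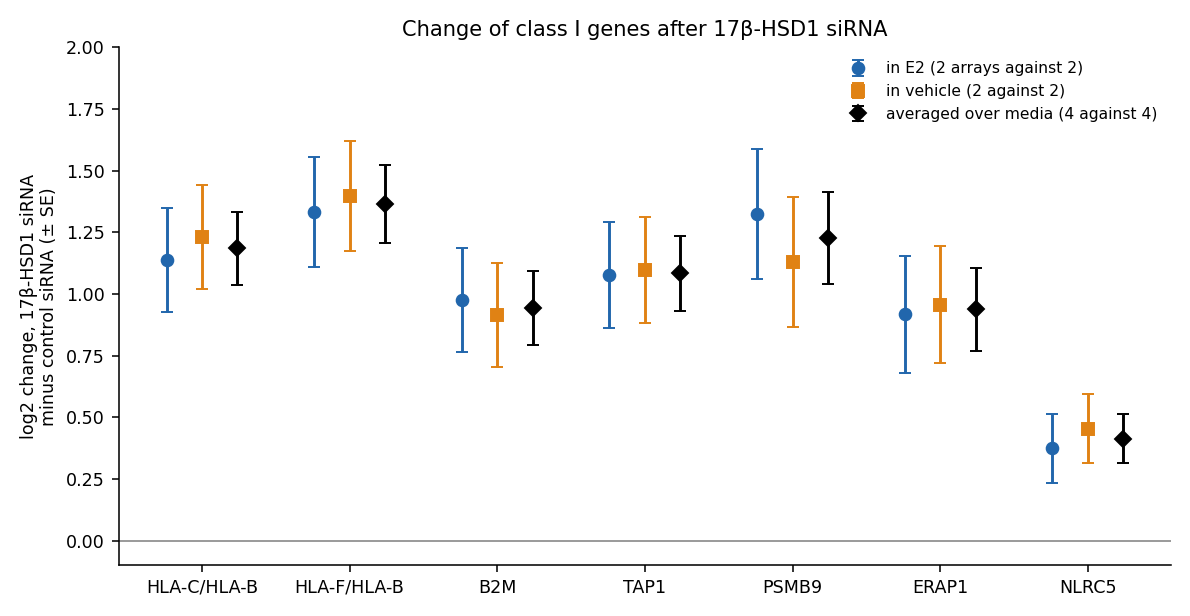
Log2 change of each class I readout (vertical axis, 17β-HSD1 siRNA minus control siRNA) in E2, in vehicle and averaged over the media; bars are ± 1 SE from the limma fit. HLA-F/HLA-B has the largest averaged change, 1.37, and NLRC5 the smallest, 0.41, and the changes in the 2 media lie within their SE of each other for each readout.

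The change after siRNA did not differ detectably between the media. The difference of the changes, in E2 minus in vehicle, lay between -0.10 for HLA-C/HLA-B and 0.19 for PSMB9, and limma called none (adjusted p = 0.9999 for each, 0 of 21214 probe sets called, 140 at an unadjusted p below 0.05, 0.66%). These differences changed sign with 1 control siRNA array in E2: without its replicate 1 and without its replicate 2 they were -0.41 and 0.22 for HLA-C/HLA-B, -0.17 and 0.56 for PSMB9, and -0.35 and 0.31 for TAP1. For HLA-C/HLA-B the 95% interval of the difference ran from -0.75 to 0.56 and for PSMB9 from -0.63 to 1.02. For B2M it ran from -0.59 to 0.72 and for NLRC5 from -0.51 to 0.36, so a difference as large as the change of NLRC5 itself was within each of these intervals in at least 1 direction.

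E2 itself moved none of the class I readouts past the threshold. Averaged over the siRNAs, the change in E2 relative to vehicle lay between -0.10 ± 0.17 for ERAP1 and 0.13 ± 0.19 for PSMB9, with limma adjusted p from 0.959 to 0.997. Over all probe sets 329 were called in the same comparison (1.55%), 281 of them higher in E2 (1.32%) and 48 lower (0.226%). None of the 7 readouts had an unadjusted p below 0.05 there, against 8.89% of probe sets. With 17β-HSD1 siRNA, HLA-C/HLA-B changed by -0.09 ± 0.21 in E2 and B2M by -0.005 ± 0.21. With control siRNA, HLA-C/HLA-B changed by 0.01 ± 0.21 and B2M by -0.07 ± 0.21. The 95% interval of the averaged E2 change of HLA-C/HLA-B ran from -0.37 to 0.28 and that of B2M from -0.36 to 0.29.

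The classical readout, HLA-C/HLA-B, and the non-classical readout, HLA-F/HLA-B, moved in the same direction on all probe sets. The 3 HLA-C/HLA-B probe sets rose by 1.17, 1.18 and 1.18 on the log2 scale and the 3 HLA-F/HLA-B probe sets by 1.35, 1.36 and 1.37 (SE 0.15 to 0.16 each, limma adjusted p = 0.0104 for all 6). On each array the log2 difference between the 2 readouts was taken, as a description with no test, to compare it between siRNAs; its size alone does not say which gene has more RNA. It was 1.99 and 2.04 with 17β-HSD1 siRNA in E2, against 2.17 and 2.26 with control siRNA in E2. In vehicle it was 2.21 and 1.90 with 17β-HSD1 siRNA, against 2.21 and 2.23 with control siRNA. It averaged 2.04 ± 0.13 with 17β-HSD1 siRNA and 2.22 ± 0.04 with control siRNA (SD, n = 4 each), a difference of -0.18 (-0.20 in E2 and -0.17 in vehicle). Without replicate 2 of 17β-HSD1 siRNA with vehicle it was -0.10. The groups overlapped, since replicate 1 of 17β-HSD1 siRNA with vehicle lay among the control arrays, and the contrast is blurred because both readouts also name HLA-B and HLA-E was not analysed here.

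**Figure D3:**
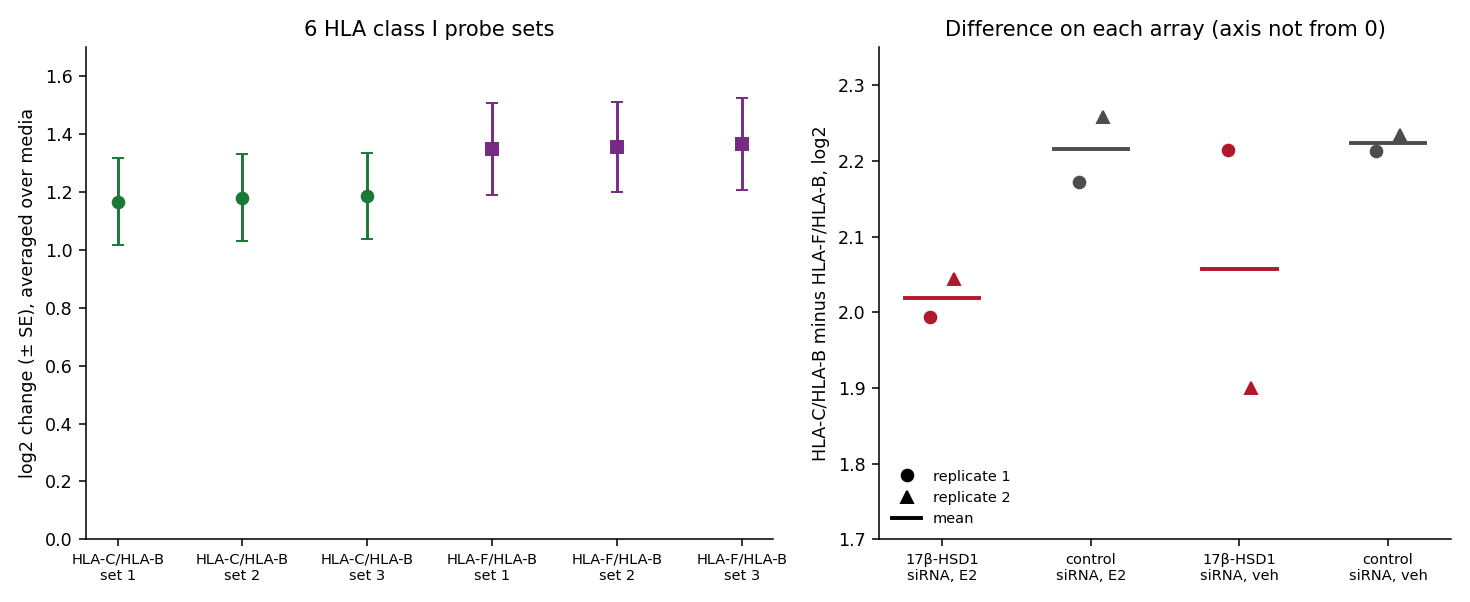
Left, averaged log2 change after 17β-HSD1 siRNA with ± 1 SE for the 3 HLA-C/HLA-B and the 3 HLA-F/HLA-B probe sets. Right, the log2 difference HLA-C/HLA-B minus HLA-F/HLA-B on each array (axis not from 0; bars are means of 2 arrays), at 1.99, 2.04, 2.21 and 1.90 with 17β-HSD1 siRNA and between 2.17 and 2.26 with control siRNA.

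Within the knockdown arrays the readouts did not all order the same way. Relative to its mean over the 8 arrays, the median of the 7 readouts was highest in replicate 2 of 17β-HSD1 siRNA with vehicle, at 0.74, and lowest among the knockdown arrays in replicate 1 of the same group, at 0.28. The 17β-HSD1 siRNA arrays in E2 had medians of 0.59 and 0.52. PSMB9 and NLRC5 were instead highest in replicate 1 of 17β-HSD1 siRNA with E2, at 0.87 and 0.25. Among the knockdown arrays HLA-C/HLA-B was lowest in replicate 2 of 17β-HSD1 siRNA with E2, at 0.51. With control siRNA the median was -0.83 and -0.21 in E2 and -0.70 and -0.49 in vehicle. The control arrays of replicate 1 were therefore the lower ones in both media for this median. B2M and, by a small margin, NLRC5 departed from it in vehicle, where their control array of replicate 1 was the higher one.

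**Figure D4:**
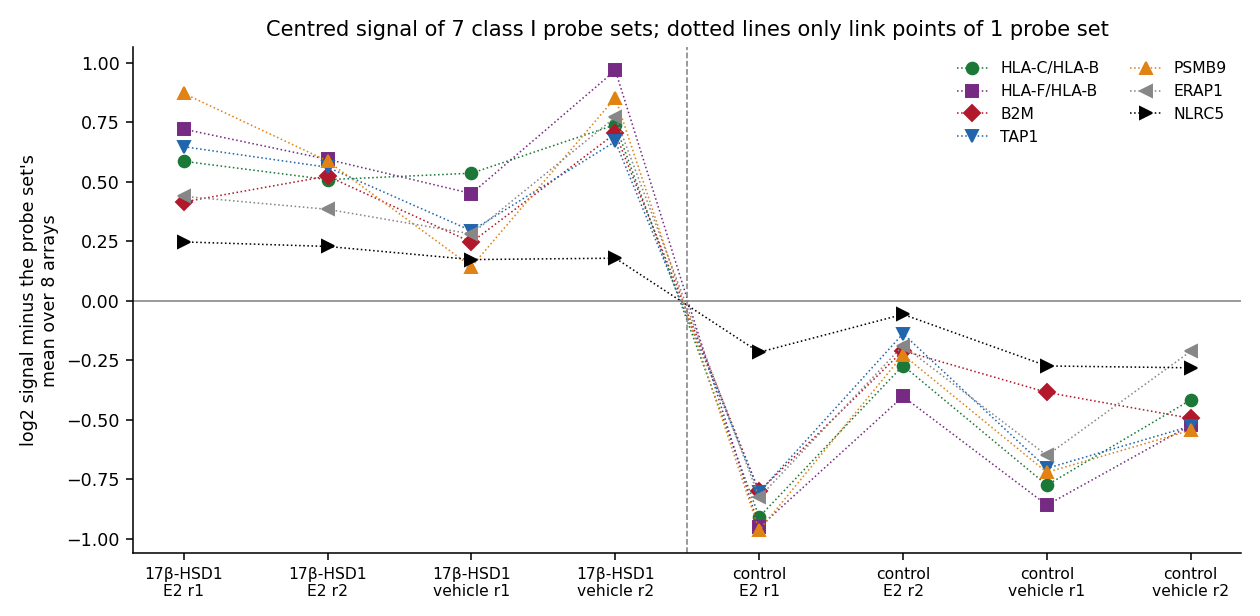
Log2 signal of the 7 class I readouts minus each one's own mean over the 8 arrays (vertical axis), by array (horizontal axis; r1 and r2 are replicates; dotted lines only join points of 1 readout). All points left of the dashed line, with 17β-HSD1 siRNA, are above 0 and all points right of it, with control siRNA, are below 0, with NLRC5 nearest to 0 on most arrays.

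The genes whose centred signal followed the class I median most closely over the 8 arrays were UBA7 (root mean square distance 0.12 log2), RTP4 (0.12), TNFSF10 (0.13), PSMB8 (0.14), MUC15 (0.15) and UBE2L6 (0.16). Their averaged log2 changes after 17β-HSD1 siRNA were 0.87, 1.05, 0.92, 0.98, 0.99 and 0.82. Since these genes were picked for following, over the same 8 arrays, a median that splits by siRNA, their changes are given as a description that the choice largely fixes, with no test. The nearest single gene was RTP4 for HLA-C/HLA-B, BTN3A1 for HLA-F/HLA-B, ZNFX1 for B2M, UBA7 for TAP1, PSMB8 for PSMB9, TNFSF10 for ERAP1 and SMCR8 for NLRC5. The distances of these nearest genes lay between 0.06 for SMCR8 and 0.16 for PSMB8. BTN3A1, a butyrophilin, had an averaged log2 change of 1.40.

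The rest of the class I pathway, taken from lists of its other genes, gave no called gene in either direction in the averaged comparison (51 of all probe sets higher, 0.24%) or in either medium. For antigen processing, 1 list held PSMB8, PSMB10, PSME1, PSME2, PSMB11 and POMP, not all of them interferon-inducible subunits or activators. All 6 were measured, with a median averaged log2 change of 0.07, against 0.01 for all tested probe sets. PSMB8, the immunoproteasome partner of PSMB9, changed by 0.98 ± 0.22 (limma adjusted p = 0.0928). Its signal was 9.81 and 9.66 with 17β-HSD1 siRNA in E2, against 8.27 and 9.26 with control siRNA in E2. In vehicle PSMB8 was at 9.25 and 10.04 with 17β-HSD1 siRNA, against 8.49 and 8.81 with control siRNA. One knockdown array in vehicle thus lay just below the control array of replicate 2 in E2. PSME1, a subunit of the interferon-inducible proteasome activator, changed by 0.20. All 6 constitutive catalytic subunits and other activators had negative values, with a median of -0.17. PSMB5, PSMB6 and PSMB7, the subunits that PSMB8, PSMB9 and PSMB10 replace, changed by -0.34, -0.28 and -0.21, none past the threshold.

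Among 11 of 13 measured transport and loading genes the median change was 0.04. CALR, the chaperone calreticulin of the loading complex, changed by 0.50 ± 0.16 (limma adjusted p = 0.253) and TAP2 by 0.34 ± 0.12 (limma adjusted p = 0.362). GANAB, a glucosidase that trims glycans of newly made heavy chains, changed by 0.61 ± 0.25 (limma adjusted p = 0.467) and BCAP31, an endoplasmic reticulum export factor, by -0.29. Among 8 of 9 measured peptidases the median was -0.03. ERAP2, the relative of ERAP1 that trims alongside it, changed by 0.96 ± 0.25 (limma adjusted p = 0.163), close to the 0.94 of ERAP1 but with wider replicates. Its signal in E2 was 7.86 and 8.09 with 17β-HSD1 siRNA, against 6.54 and 7.37 with control siRNA, and in vehicle 7.18 and 8.03 with 17β-HSD1 siRNA, against 6.19 and 7.21 with control siRNA. NPEPPS and LAP3, cytosolic aminopeptidases, changed by -0.38 and 0.46.

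Among 20 of 23 measured regulators of class I genes the median was 0.04, with none called. IRF1 and IRF9, which act at interferon response elements, changed by 0.37 ± 0.11 (limma adjusted p = 0.233) and 0.44 ± 0.11 (limma adjusted p = 0.154). STAT3 changed by 0.50 ± 0.13 (limma adjusted p = 0.144). EZH2, a histone methyltransferase known to silence class I genes in some tumours, changed by -0.47 ± 0.11 (limma adjusted p = 0.0948). Among 12 of 14 measured heavy chains and class I-like molecules outside the 9 genes the median was 0.04. HFE, which controls iron uptake, MR1, which presents vitamin B metabolites, and MICA, a stress ligand of natural killer cells, changed by 0.39, 0.34 and -0.27, none past the threshold.

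**Figure D5:**
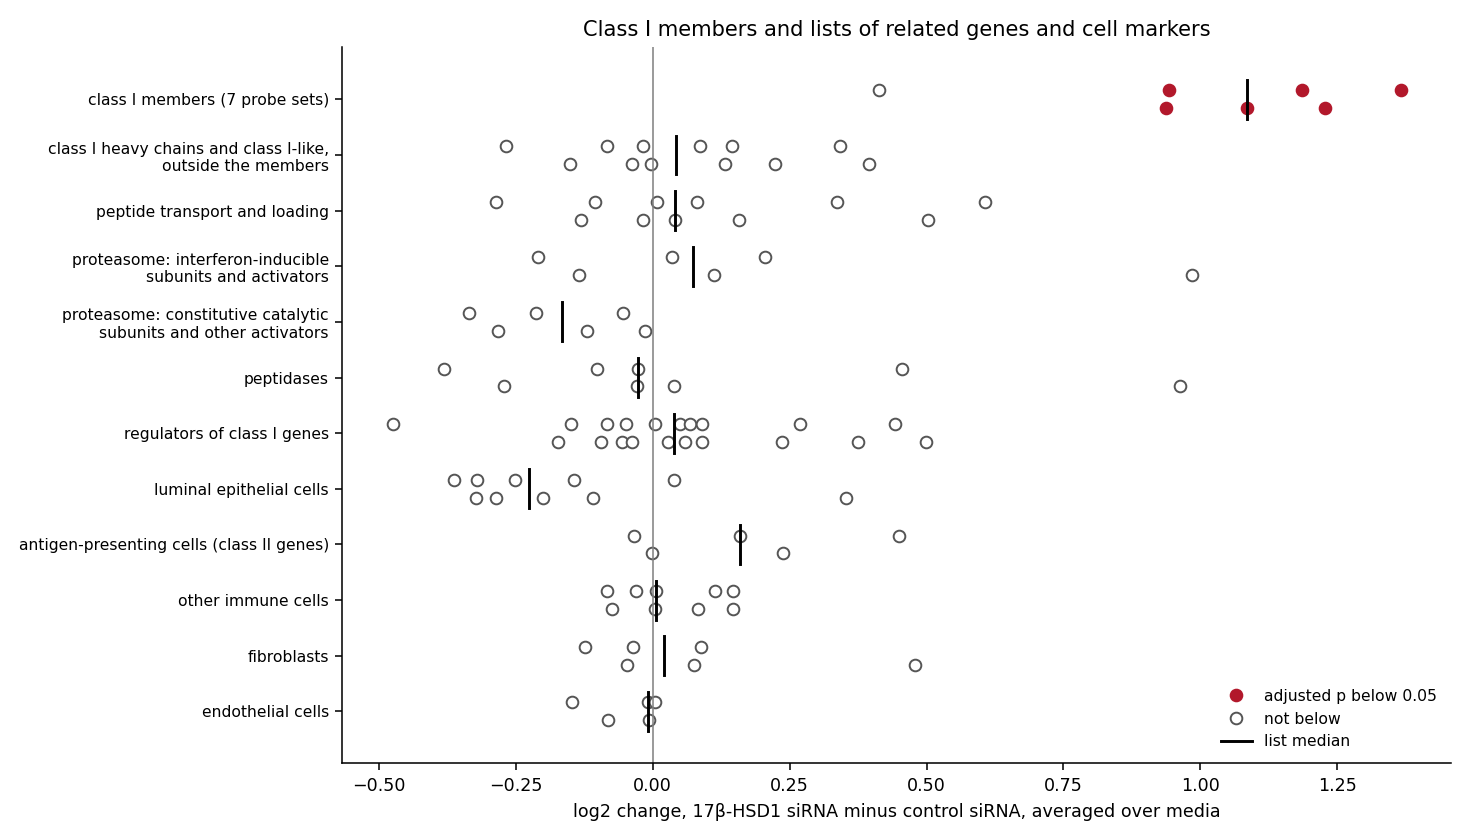
Averaged log2 change after 17β-HSD1 siRNA (horizontal axis) of the class I readouts and of 11 lists of related genes and cell type markers (rows); filled points passed an adjusted p of 0.05 and black bars are medians. Points pass the threshold in the top row only, where 6 of 7 do, with a median of 1.09 against list medians from -0.23 to 0.16 below it. The class I genes and the lists were chosen with earlier results of these data known, so the difference between rows was not tested.

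Luminal epithelial markers, which define T47D cells, were high: the 10 genes (KRT8, KRT18, KRT19, ESR1, GATA3 and others) had a median signal above that of 98.4% of probe sets. Markers of other cells that express class I genes gave no called gene in the averaged comparison, where 0.457% of all tested probe sets were called. For 9 of 10 immune markers the median averaged change was 0.01, with array means from 6.28 to 6.75 with 17β-HSD1 siRNA and from 6.37 to 6.45 with control siRNA, and a median signal above 39.5% of probe sets. The 5 of 8 class II genes measured had a median change of 0.16, and their array means separated by siRNA within each medium. HLA-DRA, HLA-DRB1 and CD74 had no probe set of their own. Of single probe sets, 18.1% had both knockdown arrays above both control arrays in E2 and 11.4% in vehicle. In E2 the class II means were 7.45 to 7.55 with 17β-HSD1 siRNA, against 7.34 to 7.41 with control siRNA. In vehicle the class II means were 7.62 to 7.65 with 17β-HSD1 siRNA, against 7.38 to 7.49 with control siRNA. HLA-DMA, a loading factor for class II molecules, had the largest value among them, 0.45 (limma adjusted p = 0.286). Fibroblast and endothelial markers had medians of 0.02 and -0.01, and luminal markers -0.23, none of any list past the threshold. The array means of the luminal markers separated the other way. In E2 they were 11.34 to 11.38 with 17β-HSD1 siRNA, against 11.43 to 11.52 with control siRNA. In vehicle they were 11.19 to 11.22 with 17β-HSD1 siRNA, against 11.28 to 11.54 with control siRNA. The share of probe sets separated in this direction within a medium was not computed. The part of these marker shifts in the class I changes was not tested. In total RNA from a well, fewer cells expressing a gene and less RNA of it per cell cannot be told apart.

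HSD17B1 signal was lower in all 4 arrays with its siRNA, at 8.32 to 8.41, against 8.56 to 9.35 with control siRNA. Of all tested probe sets 2.16% had every 17β-HSD1 siRNA array below every control siRNA array. The change of HSD17B1 did not pass the threshold (averaged log2 change -0.56 ± 0.16, limma adjusted p = 0.221). The array least like the others was replicate 1 of 17β-HSD1 siRNA with vehicle, with a mean correlation of 0.976 with them, against 0.984 to 0.988 for the others. Without it the averaged changes of HLA-F/HLA-B, HLA-C/HLA-B, B2M, TAP1 and PSMB9 were still called.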

How the data were processed

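RNA of the 8 samples had been hybridised to Human Gene 1.0 ST arrays, per the labels' protocols. The deposited table holds log2 values for 33297 probe sets; the log2 scale was read from the values. How the authors corrected background, summarised and normalized is not given in the sources used here. Values entered the tests as deposited, and precision is limited by the number of arrays. The platform annotation gave 19460 probe sets 1 symbol, 1754 several and 12083 none; the 21214 with a symbol were tested. A gene with several probe sets of its own was represented by the one with the highest mean, and HLA probe sets with 2 symbols were read as shared.

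Limma 3.58.1 in R 4.3.3 was run with 1 coefficient per group over the 8 arrays (lmFit, eBayes, 4 residual degrees of freedom). P-values were Benjamini-Hochberg adjusted over all tested probe sets and called below 0.05. The fitting code was checked on simulated data with independent noise on each array, which leaves out deviations shared by same-numbered arrays. All probe sets naming one of the 9 genes are reported; from each list up to 4 genes with the smallest p in the averaged comparison are named. Likeness was the root mean square distance of centred log2 values over 18417 genes. Members and lists were chosen with earlier results of these data known. PSMB8, ERAP2 and HLA-DMA were given array values or singled out after their values had been seen.

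The labels number the replicates 1 and 2 and state 2 independent cell culture experiments, which is where the pairing comes from. Between same-numbered arrays, deviations from the group means had correlations of 0.42, 0.31, 0.31 and 0.44 in 4 pairs of groups. For control siRNA with vehicle they correlated at 0.0075 with 17β-HSD1 siRNA in E2 and at -0.20 with 17β-HSD1 siRNA in vehicle. Alternatives were a filter at the median signal, all probe sets, the replicate block, quantile normalization, a robust spread model with a trend, only the 4 arrays compared, each array left out, and means over probe sets.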

Additional observations from a re-analysis of the deposited data

How the results depend on the processing

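With 2 arrays per group, calls moved while log2 changes did not reverse in any called comparison. Counts of genes here take HLA-B and HLA-C as 2, although 1 probe set represents both. The averaged comparison called 7 of 8 class I genes, from 6 of 7 readouts. It called 0 with all 33297 probe sets of the table in the fit, a setting that changed both the adjustment and the spread model (the SE of HLA-C/HLA-B was 0.16 in place of 0.15), so the cause was not tested, and between 0 and 7 when each array was left out in turn. Its total of 97 called probe sets was 102 above the median signal, 79 after quantile normalization, 93 with a trended robust spread model, 285 with the replicate block and 0 to 186 without 1 array; each of these first 4 settings called 7 of the class I genes. In E2, where 0 were called, the replicate block called 5 and leaving out 1 array 0 to 6. In vehicle, where 0 were called, the replicate block called 4, with 37 of all probe sets called (0.174%). The fit on only the 4 arrays compared called 5 in vehicle, with 63 of all probe sets called (0.297%), and calls also moved without 1 array. A block with the control siRNA, vehicle numbers crossed, chosen after seeing the data, called 7 averaged (170 probe sets in all) and 0 in vehicle. The block changed no other class I call. E2 and the difference between media called 0 class I genes under each alternative run, although the total of 329 called for E2 was 99 with all probe sets, 509 with the block and as low as 121 without 1 array. HLA-F/HLA-B ranged from 1.23 to 1.504 without 1 array, HLA-C/HLA-B from 1.03 to 1.34, PSMB9 from 1.04 to 1.41, TAP1 from 0.92 to 1.25, B2M from 0.80 to 1.09, ERAP1 from 0.78 to 1.10 and NLRC5 from 0.37 to 0.45. The classical minus non-classical difference of -0.18 ranged from -0.26 to -0.10 without 1 array, and was -0.22 after quantile normalization. It was -0.18 with the mean of 3 probe sets of each kind and -0.13 with the mean of all probe sets naming each gene. That last setting averages the HLA-F/HLA-B probe sets into the HLA-B value on the classical side, so its smaller size follows from the construction. Of the other values under an alternative, 471 kept their side of the threshold, 25 fell below it and 22 passed it. No called change reversed (0), while values that were not called, for E2 and for the difference between media, changed sign for some readouts without single arrays. Probe sets shared between HLA genes limit what can be said of HLA-B, HLA-C or HLA-F alone.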
